A study of Mus musculus with 72 samples.

Results

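Whole blood of mice that had drunk low-dose lead (Pb) was compared with that of control mice after both had returned to Pb-free water. The arrays are the 15 titled as low Pb and the 7 titled as control in the recovery collection, 22 of the 72 arrays of the series. All mice were female Balb/c mice, 9 weeks old at the start. The low Pb mice drank lead acetate trihydrate at 5 µg/mL for 2 weeks and then Pb-free water for 2 weeks, and the control mice drank water with 0 µg/mL throughout. Beside them stand the high Pb mice, given 50 µg/mL, of which 13 were sampled after recovery, and the first collection at the end of exposure, with 15 low Pb and 7 control arrays. The 15 low Pb mice were bled at both collections. The labels do not say whether the 7 recovery controls were other mice than the 7 sampled after exposure. The question is which blood transcripts differ once exposure at the lower dose has ended.

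Lead enters red cells, where it inhibits enzymes of heme synthesis, above all delta-aminolevulinic acid dehydratase (Alad) and ferrochelatase (Fech), and the pyrimidine nucleotidase Nt5c3. Blood RNA comes from leukocytes, from reticulocytes, which are young red cells that still hold RNA, and from platelets, which carry transcripts of the megakaryocytes they bud from. Gata1 is the transcription factor that red cell and megakaryocyte precursors share, and it binds DNA at GATA motifs. In whole blood, fewer cells of a type and less RNA per cell cannot be told apart.

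The promoters of 3 genes that recur below are shown, because Gata1 is among the genes of smallest p and Gp5 and Gp6 are surface receptors of platelets. Each runs from 250 bases before to 50 bases after a start given by RefSeq on GRCm38.p6, which for Gata1 lies inside the gene's full annotated extent, so that its outermost start is not shown. They are printed 5′ to 3′ on the minus strand, with GATA motifs in capitals (AGATAA or TGATAA, or TTATCT or TTATCA where the motif lies on the other strand).
Gata1, chrX:7967861-7968160: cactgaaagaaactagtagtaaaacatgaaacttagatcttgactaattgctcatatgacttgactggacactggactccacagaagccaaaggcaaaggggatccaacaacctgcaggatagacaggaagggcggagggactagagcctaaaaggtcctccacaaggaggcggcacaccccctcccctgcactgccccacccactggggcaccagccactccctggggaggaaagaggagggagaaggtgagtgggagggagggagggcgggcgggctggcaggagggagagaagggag
Gp5, chr16:30310732-30311031: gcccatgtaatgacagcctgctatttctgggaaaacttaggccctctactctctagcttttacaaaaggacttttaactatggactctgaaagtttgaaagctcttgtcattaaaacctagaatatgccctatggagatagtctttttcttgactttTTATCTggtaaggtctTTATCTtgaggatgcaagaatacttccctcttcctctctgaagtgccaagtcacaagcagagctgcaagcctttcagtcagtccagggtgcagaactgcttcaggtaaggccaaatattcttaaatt
Gp6, chr7:4397695-4397994: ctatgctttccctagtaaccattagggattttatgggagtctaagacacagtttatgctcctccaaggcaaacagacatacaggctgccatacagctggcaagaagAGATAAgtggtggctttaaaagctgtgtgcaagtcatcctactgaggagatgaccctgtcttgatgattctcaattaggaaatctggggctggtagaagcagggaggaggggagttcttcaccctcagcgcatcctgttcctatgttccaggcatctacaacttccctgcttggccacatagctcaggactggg
The window of Gp5 held 2 motifs, that of Gp6 held 1 and that of Gata1, at its inner start, held 0. The motif was found in 12.8% of the 10098 tested genes matched to a promoter, in 7 of 22 matched platelet genes (31.8%), in 3 of the 12 matched platelet genes at an unadjusted p under 0.05 after recovery (25%) and in 17 of 29 matched erythroid genes (58.6%). A match describes letters in this window and does not show binding.

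The deposited values are log2 expression values. A probe set is a group of short probes for a transcript. After probe sets near background were left out and each gene was represented by its brightest probe set, 12588 genes were tested. Array medians lay between 4.05 and 4.22 over the series. Arrays of the recovery comparison correlated between 0.954 and 0.994, with a median of 0.985 among low Pb arrays, 0.985 among controls and 0.986 between them, and 0 pairs were identical. Blood cell markers were bright: the red cell gene Alas2 averaged 13.8 in low Pb and 13.8 in control arrays, the neutrophil gene S100a8 averaged 12.7 in both, and the T cell gene Cd3e averaged 10.8 in both. The muscle creatine kinase gene Ckm averaged 4.78 in low Pb and 4.75 in control arrays, nearer to the median of all values, 4.14. Of 6 measures of array quality, 0 differed between the groups by an exact permutation test (two-sided p between 0.523 and 0.985, adjusted p 0.985 for each, n = 15 and 7).

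No gene passed the test after recovery from the low dose. With limma over all 72 arrays, 0 of 12588 genes had a Benjamini-Hochberg adjusted p under 0.05 (0%), and the smallest adjusted p was 0.342, that of the cytochrome c oxidase assembly gene Cox16. At an unadjusted p under 0.05 there were 295 genes (2.34%), 215 of them higher (1.71%) and 80 lower (0.636%) in low Pb mice, where evenly spread p-values would give 629. At an unadjusted p under 0.01 there were 39, where evenly spread p-values would give 126. In these data 5924 genes were higher (47.1%) and 6664 lower in low Pb than in control mice, by a median of -0.0044 on the log2 scale. The 5th percentile of the differences was -0.11 and the 95th was 0.13. For 0 genes did the low Pb and the control arrays fail to overlap (0%). At most 12 of the 15 low Pb arrays lay beyond all 7 control arrays, for Cep131, Smyd4 and Trappc9, genes singled out after their values were seen. Among the 3997 tested probe sets with no gene name or several, 0 passed.

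**Figure D1:**
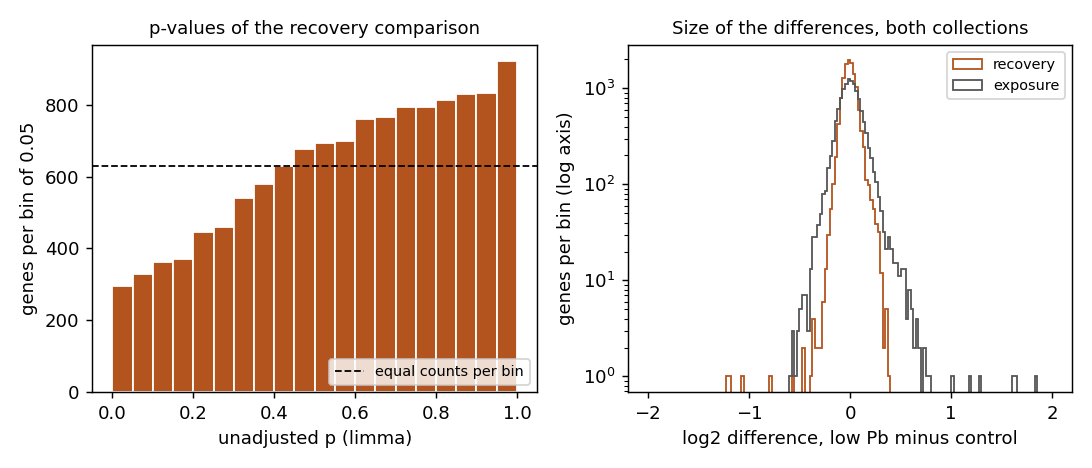
Left, unadjusted limma p-values of 12588 genes, low Pb against control after recovery, in bins of 0.05, with a dashed line at equal counts per bin; the lowest bin holds 295 genes and lies below the line. Right, log2 differences, low Pb minus control, after recovery and after exposure (counts on a log axis); the recovery differences spread less widely.

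The median standard error of a gene's log2 difference was 0.0862, and for 12535 genes (99.6%) the whole 95% interval lay within a change of 1.5-fold in either direction. In simulated data of the same groups, 89 of 100 genes changed by 0.5 on the log2 scale were recovered and 100 of 100 changed by 1, and 16 unchanged genes were called as well. The simulation drew each gene's values independently, whereas genes in blood can vary together within an array. It also held more changed genes than were called here, so these rates may not hold for the real arrays. The comparison rests on 15 low Pb and 7 control samples. Its limma p-values use the spread pooled over all 6 groups, and the exact permutation p-values only these 22 arrays. In a limma fit to those 22 arrays alone, 0 genes passed and 240 had an unadjusted p under 0.05.

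The 15 genes of smallest p are described here as values that did not pass the test. Cox16 (GRCm38.p6 chr12:81358852-81485137) encodes a mitochondrial inner membrane protein needed to assemble cytochrome c oxidase. Its log2 level had a lowest value of 6.59, a median of 6.88 and a highest value of 7.54 in the 15 low Pb arrays, against 6.90, 7.35 and 8.30 in the 7 control arrays. The groups overlap, with 8 low Pb arrays below every control and 1 control, replicate 4, at 8.30, well above the others. The means were 6.96 ± 0.26 in low Pb and 7.42 ± 0.46 in control mice (SD), a difference of -0.46 ± 0.10 (SE, 95% interval -0.66 to -0.25). The limma p, from the spread pooled over all 6 groups, was 2.72e-05. The exact permutation p, two-sided and from the 15 low Pb and 7 control arrays alone, was 0.00518. A second, dim Cox16 probe set, left out by the filter on low values, differed by -0.38 (p = 0.00131 by limma), and another, dimmer still, by -0.10. Without control replicate 4 the Cox16 difference was -0.31 (adjusted p = 0.998 by limma). Without control replicate 1 it was -0.54 (adjusted p = 0.0195), and without low Pb replicate 4 it was -0.50 (adjusted p = 0.0401), so 1 array on either side of the comparison moves this gene across the threshold. Of the 19 measured cytochrome oxidase assembly factors, 15 were lower and 4 higher, with a median of -0.03. After Cox16, the assembly genes of smallest p were Coa7, at -0.11, and Cox20, at -0.08.

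Several of the other 14 are genes of red cells and platelets, and these were higher in low Pb mice. Gata1 (GRCm38.p6 chrX:7959260-7976663) had a lowest log2 level of 7.80, a median of 8.13 and a highest of 8.58 in low Pb arrays, against 7.57, 7.85 and 8.03 in control arrays. Of the 15 low Pb arrays, 11 lay above every control array. The difference was 0.31 ± 0.08 (SE), with an unadjusted p of 0.000189 by limma. Stom, the red cell membrane protein stomatin, had values of 8.79, 9.24 and 9.49 (lowest, median, highest) in low Pb arrays and 8.60, 9.05 and 9.13 in control arrays. Its difference was 0.28 ± 0.08 (SE), and 10 low Pb arrays lay above all controls. Of its 5 other probe sets that passed the filter, the brightest differed by 0.26, and 4 dim ones by 0.28, 0.03, 0.04 and -0.03. Mfsd2b, the exporter of sphingosine-1-phosphate in red cells and platelets, averaged 7.56 ± 0.30 in low Pb and 7.21 ± 0.36 in control arrays (SD), a difference of 0.35, yet only 3 low Pb arrays lay above all controls, and its other probe set that passed the filter differed by 0.05. Gp5, the platelet receptor subunit glycoprotein V (GRCm38.p6 chr16:30307685-30310781), whose promoter is shown above, had values of 8.80, 9.31 and 10.1 in low Pb arrays and 8.66, 9.03 and 9.24 in control arrays, and 9 low Pb arrays exceeded all controls. Hk1, the hexokinase of red cells, differed by 0.20.

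Genes with other roles made up the rest. Hexim2, an inhibitor of the kinase that releases paused RNA polymerase, had values of 5.70, 6.06 and 6.47 in low Pb arrays and 5.52, 5.75 and 5.87 in control arrays, with 11 low Pb arrays above all controls. The death-associated kinase gene Dapk1 had values of 5.89, 6.17 and 6.51 in low Pb arrays, against 5.59, 5.88 and 6.13 in control arrays. Both groups overlap for each of these genes. Cdkn2b, a cyclin-dependent kinase inhibitor, differed by 0.27, the formin Inf2 by 0.29, the neurofilament subunit Nefh by 0.30 and the translation initiation factor Ctif by 0.21. Lower in low Pb mice were Lect2, a chemotactic protein, at -0.25, Plekhh3, at -0.25, and Cdkn1a, a cell cycle inhibitor and p53 target, at -0.24. The second probe set of Cdkn1a differed by 0.03, so the probe sets of that gene disagree.

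**Figure D2:**
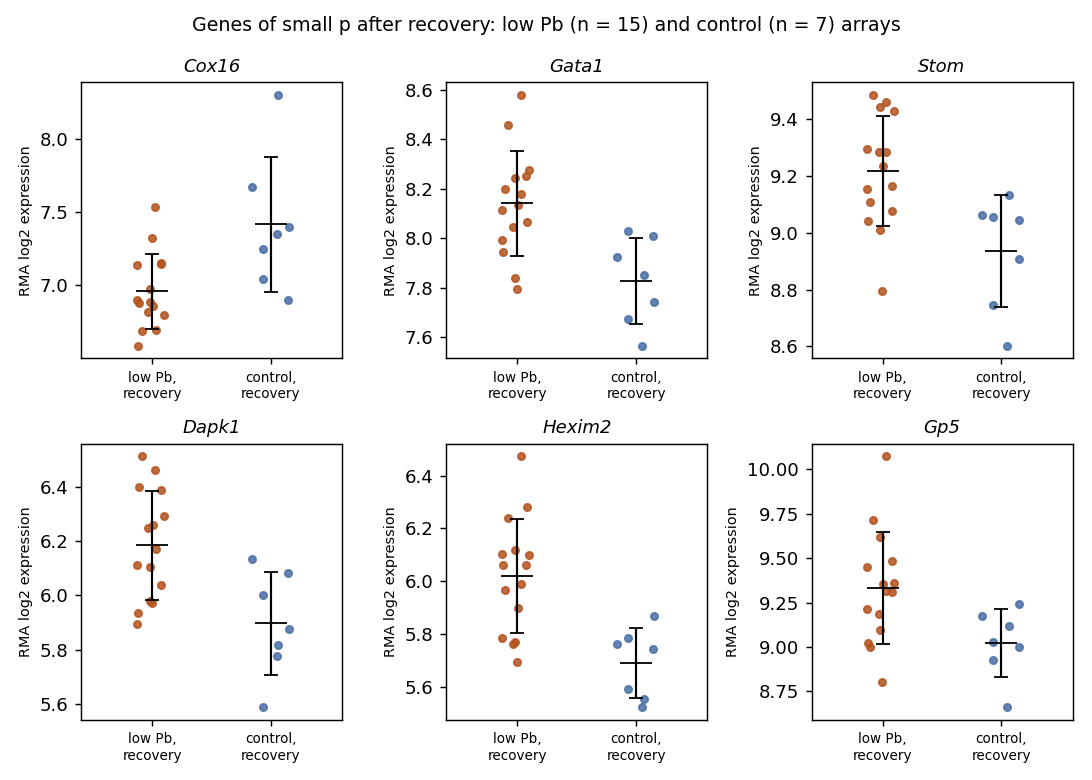
RMA log2 expression of 6 of the 15 genes of smallest p, a point per array, low Pb on the left (n = 15) and control on the right (n = 7), with mean and SD in black. Cox16 lies lower on average in low Pb arrays, and 1 high control array adds to that difference. The other 5 genes lie higher on average in low Pb arrays. The groups overlap in every panel.

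Platelet and megakaryocyte markers lay higher in low Pb mice as a list, without a gene of it passing the test. Of 33 listed genes 29 were measured, and 28 of these were higher, with a median of 0.22, where 47.1% of all tested genes were higher and their median was -0.0044. Of the 29, 15 had an unadjusted p under 0.05 and were higher, where 1.71% of all genes were. The largest differences were those of Vwf, the von Willebrand factor, at 0.35 ± 0.13 (SE), and Gp5, at 0.31 ± 0.10. The collagen receptor Gp6 had log2 levels of 6.52, 6.96 and 7.39 (lowest, median, highest) in low Pb arrays and 6.37, 6.68 and 6.96 in control arrays, a difference of 0.26 ± 0.10. The lipoxygenase Alox12 differed by 0.27, the thromboxane synthase Tbxas1 by 0.22, and the integrin subunits Itga2b and Itgb3 by 0.25 and 0.23. Pf4, Ppbp and Gng11, among the brightest members, differed by 0.09, 0.13 and 0.08. The thrombin receptor F2r was the single member with a negative difference, at -0.07.

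The mean of the list per array, relative to each gene's mean over the series, was -0.0233 ± 0.212 in low Pb and -0.212 ± 0.151 in control arrays (SD, n = 15 and 7). Its lowest value, median and highest value were -0.330, -0.0514 and 0.486 in low Pb arrays and -0.429, -0.221 and 0.0330 in control arrays. The groups overlap over most of their range, and 5 low Pb arrays lay above every control. The highest of all, low Pb replicate 4, also had the widest relative log expression (interquartile range 0.532) and the lowest erythroid list mean (-1.01) of the 22 arrays. Without it the platelet median was 0.18, and without control replicate 3, whose platelet mean was lowest, it was also 0.18, with 5 members at an unadjusted p under 0.05 instead of 15. Over all 12588 genes, 212 had an unadjusted p under 0.05 by limma without control replicate 3, against 295 with all arrays. Members of a list that share a cell type vary together within an array, so the count of members is not a count of independent observations.

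Erythroid genes had a median near 0. Of 47, 40 were measured, 13 were higher and 27 lower, with a median of -0.04. The 4 members at an unadjusted p under 0.05 (10%) were all higher, where 1.71% of all genes were higher at that threshold. They are Gata1, Tal1 (0.28, a transcription factor that acts with Gata1), the erythropoietin receptor Epor (0.23) and the transcription factor Nfe2 (0.21). The transcription factor Klf1, at -0.11, and the transferrin receptor Tfr2, at -0.02, were not higher. Among structural genes of the red cell, the anion exchanger Slc4a1 stood at -0.05 ± 0.15 (SE), the beta spectrin gene Sptb at -0.05 ± 0.25, the ankyrin gene Ank1 at 0.03 ± 0.13 and the blood group gene Kel at -0.16 ± 0.21, each within its own error of 0. With the platelet list mean as a covariate, a fit added after the values were seen, the limma differences of these 4 genes were smaller. They were 0.18 for Gata1 (0.31 without the covariate), 0.08 for Tal1 (0.28), 0.19 for Epor (0.23) and 0.03 for Nfe2 (0.21). The platelet mean itself differed between the groups, so this fit can take up part of any group difference. The part of platelets in these values was not tested further. The 5 measured globin genes, which were depleted from the RNA before labelling, had a median of -0.16. They were dim, with a median level of 4.11, where the median of all values was 4.14. Another probe set of Hbb-b2 differed by 0.08, against -0.31 for the one used. Others of Hbb-y differed by -0.11 and -0.19, against -0.16.

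Heme synthesis genes differed little between the groups. Of 15 genes 13 were measured, 4 were higher and 9 lower, with a median of -0.02, and 0 had an unadjusted p under 0.05. Alad had a lowest log2 level of 7.46, a median of 7.92 and a highest of 8.13 in low Pb arrays, against 7.57, 7.92 and 8.32 in control arrays, a difference of -0.06 ± 0.13 (SE, 95% interval -0.33 to 0.20). Alas2, the first enzyme of the pathway in red cells, differed by 0.01 ± 0.04, and Fech by -0.03 ± 0.04. Nt5c3 differed by -0.08 ± 0.19 and the transferrin receptor Tfrc by 0.25 ± 0.29. Other probe sets that passed the filter had the opposite sign, at 0.14 ± 0.14 (SE) for Alad and -0.07 ± 0.09 for Tfrc. The 95% interval was -0.07 to 0.08 for Alas2 and -0.10 to 0.04 for Fech. Both lie near the highest value on any array, 14.1, and whether differences are compressed there was not tested. Another Fech probe set, less bright, differed by -0.13 ± 0.16 (SE). The interval of Alad lay within a change of 1.5-fold, and that of Tfrc, with an upper bound of 0.83, did not.

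Metal handling and stress genes were also near 0. Among the metallothioneins, which bind metal ions, Mt1 had log2 levels of 4.64, 4.86 and 5.19 (lowest, median, highest) in low Pb arrays and 4.52, 4.79 and 5.11 in control arrays. Mt2 differed by 0.15 ± 0.12 (SE), with the highest low Pb array at 5.52 and the highest control at 4.52. The metallothionein and metal transport list had a median of 0.01 over 15 measured genes, with the metal-sensing factor Mtf1 at 0.13, and iron handling had a median of 0.00 over 15. Other probe sets that passed the filter differed by 0.07 and -0.13 for Mtf1 and by 0.31 ± 0.34 (SE) for Mt1. Antioxidant genes and Nrf2 targets had a median of 0.01 over 16 genes, with Srxn1 at 0.19 and Gsr at 0.14. Heat shock chaperones had a median of 0.00 over 21 genes, interferon-stimulated genes of 0.04 over 32 and p53 targets of -0.01 over 19.

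Markers of leukocytes lay close together in both groups. B cell markers had a median difference of 0.00 over 24 measured genes, antigen presentation genes of 0.02 over 18, monocyte markers of 0.02 over 25, neutrophil markers of 0.02 over 21 and T cell markers of -0.03 over 24. Of the 17 measured markers of NK and cytotoxic cells 14 were lower, with a median of -0.08, and Ncr1, an activating receptor, differed by -0.17 ± 0.13 (SE). Of the 15 circadian clock genes 13 were lower, with a median of -0.06, led by Clock at -0.14, though the other probe sets of Clock differed by 0.00 or were too dim to test. The monocyte marker of smallest p was F13a1, the subunit A of coagulation factor XIII, which platelets also hold, at 0.32 ± 0.11. Of the 31 lists, only those of platelet and of globin genes had a median beyond 0.1 in either direction, and 0 genes of any list passed the test.

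**Figure D3:**
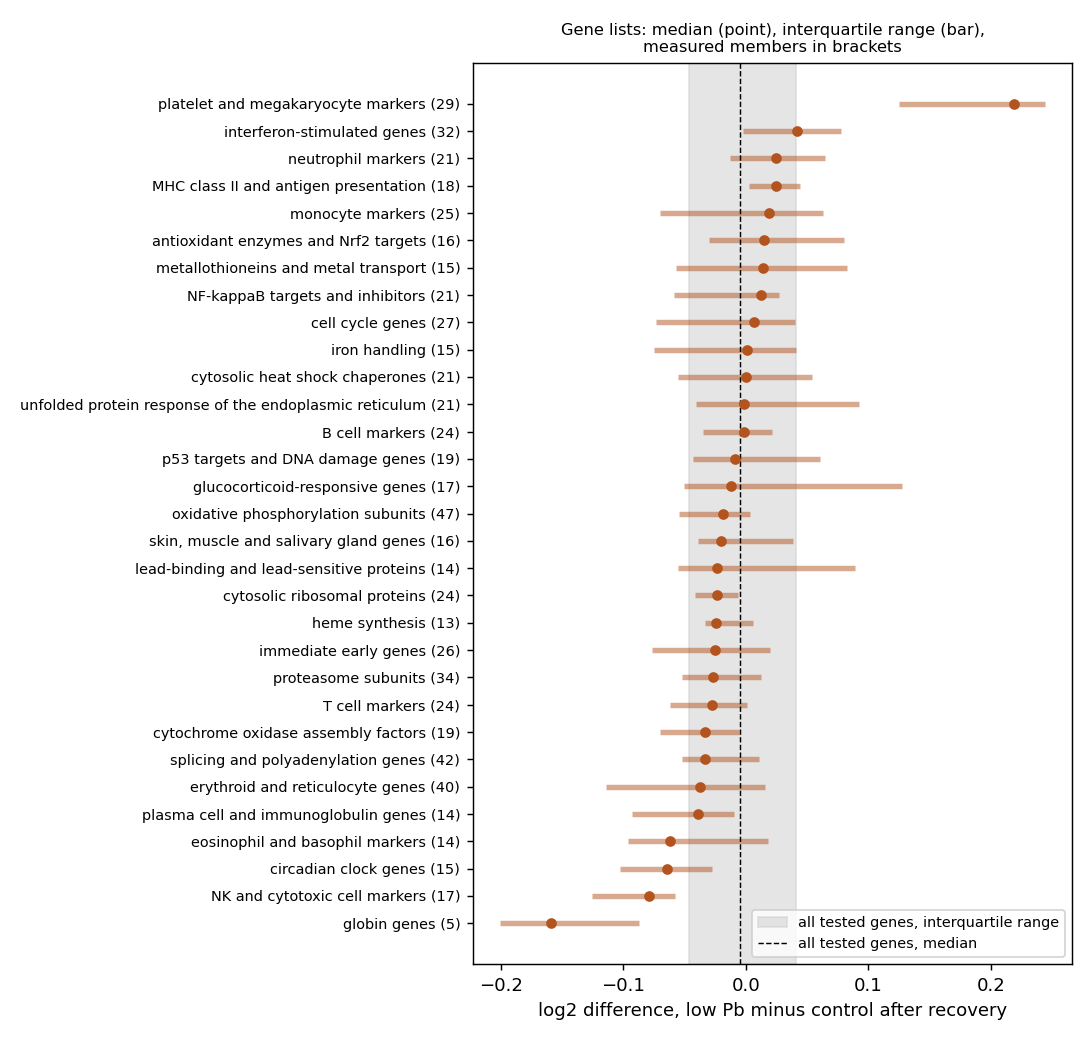
Median log2 difference (point) and interquartile range (bar) of 31 gene lists, low Pb minus control after recovery, with the same for all tested genes as a dashed line and a grey band. Platelet markers stand highest, at 0.22, globin genes lowest, at -0.16, and every other median lies between -0.08 and 0.04.

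Genes that differed after low Pb exposure were then followed to the recovery collection. After exposure 164 genes had passed the test (1.3%), 140 higher (1.11%) and 24 lower (0.191%) in low Pb mice. After recovery 0 of them passed and 6 had an unadjusted p under 0.05 (3.66%, against 2.34% of all genes). The 140 had a median difference of 0.44 after exposure and of 0.00 after recovery, when 77 were higher and 63 lower. The 24 had a median of -0.34 after exposure and of 0.11 after recovery, when 18 were higher and 6 lower. The 164 genes were chosen for their exposure values, so their exposure estimates are not independent of that choice. The limma test of the difference between the 2 effects passed for 3 of the 164. Of them, 83 (50.6%) had the same sign in both collections, against 48.7% of all genes.

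Over all tested genes, 1.11% had been called higher after exposure. By list, 9 of 25 monocyte markers, 6 of 24 B cell markers, 6 of 18 antigen presentation genes and 3 of 26 immediate early genes had been called higher after exposure. Their medians were 0.31, 0.39, 0.41 and 0.08 then, and 0.02, 0.00, 0.02 and -0.03 after recovery. The largest single differences after exposure were those of Fos and Dusp1, immediate early genes, which are transcribed within minutes of a stimulus. Fos had log2 levels of 5.60, 6.33 and 7.72 (lowest, median, highest) in low Pb recovery arrays and 5.88, 6.16 and 6.75 in control recovery arrays, a difference of 0.19 ± 0.18 (SE), where after exposure it was 1.28. Dusp1, a phosphatase that ends kinase signals, had a difference of 0.25 ± 0.16 after recovery and 1.01 after exposure. The chemokine receptor Cxcr4 had levels of 7.98, 8.55 and 9.05 in low Pb arrays and 7.85, 8.0 and 8.71 in control arrays after recovery, a difference of 0.35 (unadjusted p = 0.0301 by limma), against 0.75 after exposure. Tsc22d3, a glucocorticoid-induced gene, stood at 0.25 after recovery and 0.51 after exposure. The oxidase subunit Cybb stood at 0.02 after recovery and 0.67 after exposure, the cold-inducible Cirbp at -0.03 and 0.67, Trim7 at 0.01 and 0.80, and the immunoglobulin gene Ighv14-2 at 0.00 and 0.70. Among the genes lower after exposure, Bmp2 stood at 0.24 after recovery and -0.60 after exposure, the channel gene Trpc1 at 0.31 and -0.50, and the chaperone genes Hsph1 and Stip1 at 0.05 and -0.04 after recovery, against -0.52 and -0.50 after exposure.

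**Figure D4:**
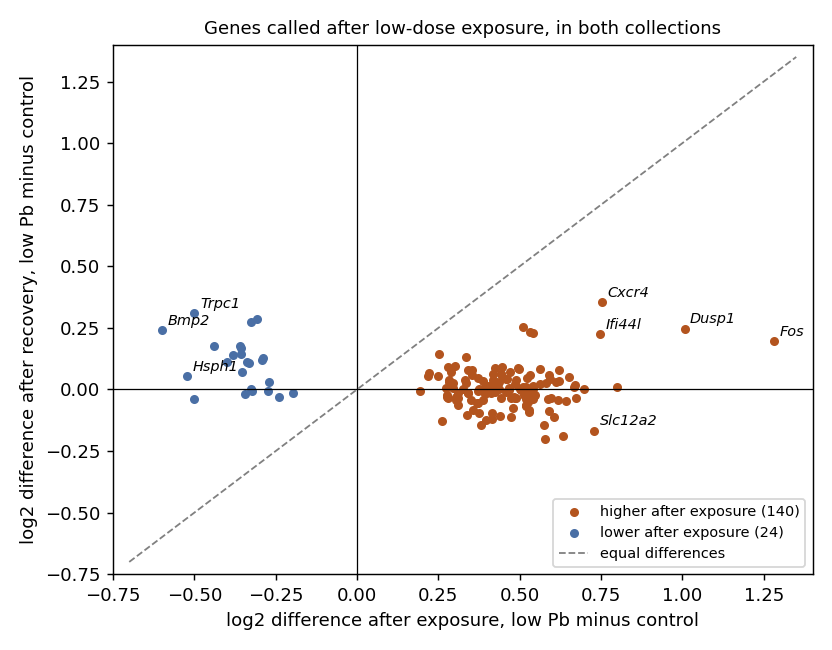
Log2 differences, low Pb minus control, of the 164 genes called after exposure, with the exposure difference on the horizontal and the recovery difference on the vertical axis and a dashed line at equal differences. The 140 higher genes scatter about 0 on the vertical axis and 18 of the 24 lower genes lie above it.

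The difference between the recovery and the exposure effect passed the limma test for 3 genes of 12588 (0.0238%). With the replicate number as a random block the count was 16. Slc12a2, the sodium, potassium and chloride cotransporter, had log2 levels of 5.90, 6.17 and 6.63 (lowest, median, highest) in low Pb and 5.85, 6.47 and 6.85 in control arrays after recovery. After exposure its levels were 6.29, 6.49 and 6.71 in low Pb and 5.42, 5.72 and 6.06 in control arrays, groups that did not overlap then. The low Pb effect was -0.17 after recovery and 0.73 after exposure, a change of -0.90 ± 0.15 (SE, adjusted p = 0.000829 by limma). For Dapk1 the effect was 0.29 after recovery and -0.31 after exposure, a change of 0.60 ± 0.12 (adjusted p = 0.0149 by limma). For Cdkn2b it was 0.27 and -0.32, a change of 0.60 ± 0.12 (adjusted p = 0.0217 by limma). Slc12a2 passed whichever of the 14 control arrays of both collections was left out, Dapk1 passed in 11 of 14 such fits and Cdkn2b in 8 of 14. All 3 failed with the means of cell marker lists as covariates, where the adjusted p was 0.812 for Slc12a2, 0.995 for Dapk1 and 0.812 for Cdkn2b.

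For Slc12a2, Dapk1 and Cdkn2b the control arrays differed more between the collections than the low Pb arrays did. Dapk1 averaged 6.18 after recovery and 6.24 after exposure in low Pb mice, a difference of -0.05 ± 0.07 (SE), and 5.90 and 6.54 in control mice, a difference of -0.65 ± 0.10 (adjusted p = 3.52e-07 by limma). Cdkn2b differed between the collections by 0.04 in low Pb and by -0.55 in control mice (adjusted p = 1.29e-05 by limma in control mice). Gata1, whose change of effect of 0.50 missed the threshold (adjusted p = 0.0514 by limma), differed between the collections by -0.09 in low Pb and by -0.59 in control mice. Slc12a2 differed by -0.25 in low Pb and by 0.64 in control mice. For Gp5 the low Pb arrays differed more between the collections, by 0.31 (adjusted p = 0.000971 by limma), than the control arrays, by -0.24 (adjusted p = 0.106). The platelet list as a whole had a median difference between low Pb and control of 0.22 after recovery and -0.25 after exposure. Whether the recovery controls differ from the first controls through the mice sampled or through the collection cannot be told apart from the labels.

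**Figure D5:**
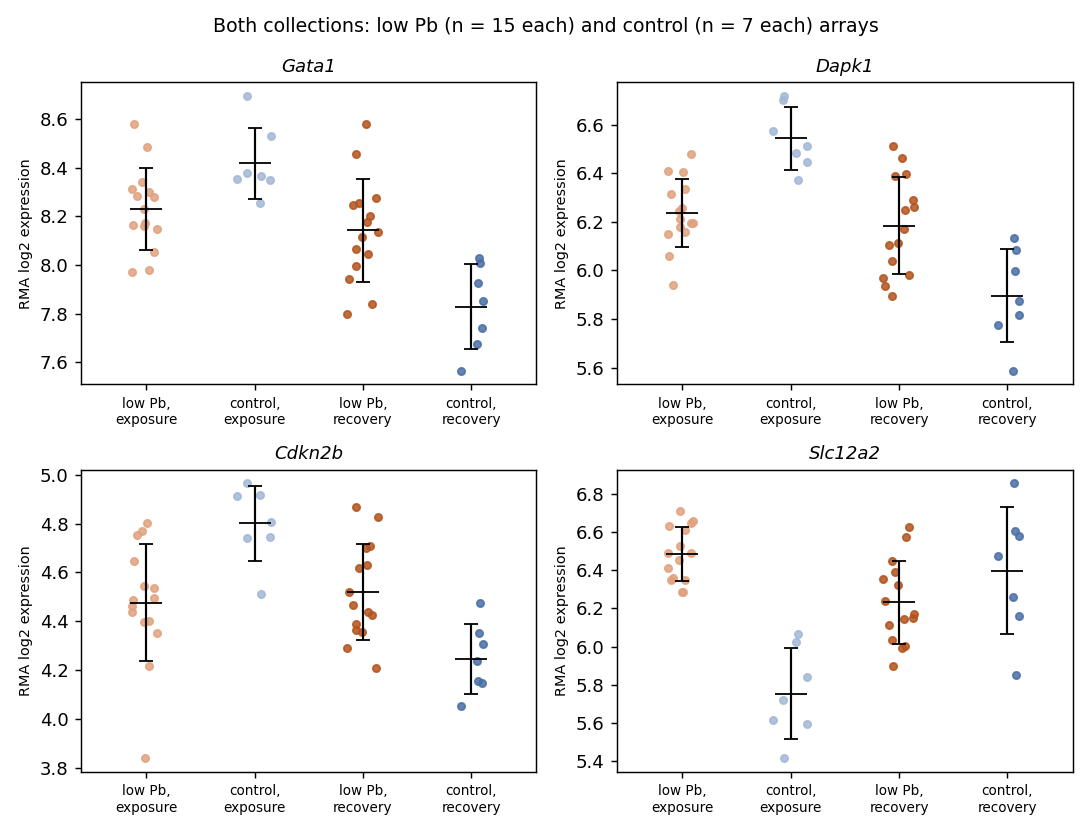
RMA log2 expression of Gata1, Dapk1, Cdkn2b and Slc12a2, a point per array with mean and SD in black, in low Pb and control arrays after exposure and in low Pb and control arrays after recovery. Low Pb arrays of both collections lie at similar levels for Gata1, Dapk1 and Cdkn2b, while the control arrays lie higher after exposure and lower after recovery.

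The high dose gave more calls against the same 7 recovery controls. High Pb mice differed from control in 54 genes (0.429%), 51 higher (0.405%) and 3 lower (0.0238%). Since both doses share these controls, their differences from control are not independent and are set side by side. Over the 51 genes the median difference from control was 0.43 at the high dose and 0.24 at the low dose, where the low-dose values lay between 0.04 and 0.38. The 51 genes were chosen for their high-dose values against these controls. That choice by itself favours larger values at the high dose and positive values at the low dose. Gata1 averaged 8.29 in high Pb, 8.14 in low Pb and 7.83 in control arrays, and its difference from control was 0.46 for high Pb and 0.31 for low Pb. Stom averaged 9.36 in high Pb, 9.22 in low Pb and 8.94 in control arrays. Gp6 averaged 7.20 in high Pb, 6.96 in low Pb and 6.70 in control arrays. Cox16 averaged 6.85 in high Pb, 6.96 in low Pb and 7.42 in control arrays. Srsf6, a splicing factor, had differences from control of -0.25 for high Pb and -0.13 for low Pb, and the dimerisation partner of bHLH-PAS factors, Arnt, of -0.25 and -0.03.

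Compared directly, high Pb and low Pb mice differed after recovery in 0 of 12588 genes by limma (0%). At an unadjusted p under 0.05 there were 1765 genes (14%), and the smallest adjusted p was 0.125. Among the genes of that adjusted p were Odf3, at 0.37 ± 0.08 (SE) higher in high Pb mice, Scrn2 at 0.36, Arnt at -0.22 and the cell cycle genes Ncapg, at 0.36, and Uhrf1, at 0.32. For Gata1 the high minus low difference was 0.15 ± 0.07 (SE, adjusted p = 0.321 by limma), for Gp6 0.24 ± 0.08 (adjusted p = 0.229) and for Cox16 -0.11 ± 0.08 (adjusted p = 0.543). A p above the threshold does not show that the doses act alike. Tfrc differed from control by 0.92 ± 0.30 (SE, adjusted p = 0.165 by limma) for high Pb and 0.25 ± 0.29 for low Pb. Its high minus low difference was 0.67 ± 0.24 (adjusted p = 0.252 by limma), so it passed in none of these comparisons.

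The 4 genes with a difference of at least 1.5-fold, singled out after their values were seen, were far from the test and were set by few arrays. They are Scgb1b2, a secretoglobin gene, Obp1a, an odorant binding protein gene, the mucin-like gene Mucl2 and the gene model Gm14743, and their products are found in secretions of exocrine glands. Scgb1b2 had a lowest log2 level of 1.39, a median of 1.89 and a highest of 10.2 in low Pb arrays, against 1.64, 2.23 and 9.48 in control arrays. It lay above the median of all values in 3 of 15 low Pb arrays, at 7.68 or more, and in 3 of 7 control arrays, at 5.73 or more, and at 2.23 or less in all the others. Obp1a and Mucl2 were high in the same 6 arrays (low Pb replicates 6, 11 and 14, control replicates 1, 3 and 6), and Gm14743 in all of them except control replicate 6. The differences were -1.22 ± 1.38 for Scgb1b2, -1.18 ± 1.42 for Obp1a, -1.07 ± 1.32 for Mucl2 and -0.78 ± 1.12 for Gm14743 (SE), with unadjusted p from 0.379 to 0.490 by limma. The salivary protein gene Pip was above the median of all values in low Pb replicates 6, 11 and 14 and control replicates 1 and 3. Blood was drawn by submandibular bleed, per the labels, and the part of the bleeding site in these values was not tested.

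Over all 6 groups, 25 of 72 arrays had Scgb1b2 above that median, among them 8 of 15 low Pb and 2 of 7 control arrays after exposure. In a limma fit without these 25 arrays, added after the values were seen, 0 genes again passed after recovery from the low dose, and 359 had an unadjusted p under 0.05. In it, 0 genes passed after low Pb exposure, against 164 with all arrays, 0 passed at the high dose after recovery, against 54, and 0 passed for the change of the effect between collections, against 3. That fit has 47 arrays, and the fewer arrays alone can lower a count. It leaves out 3 of the 7 control and 3 of the 15 low Pb recovery arrays. The platelet list had a median of 0.26 there, Gata1 differed by 0.35 and Cox16 by -0.51. Of the 29 platelet members 11 had an unadjusted p under 0.05 by limma, against 15 with all arrays. Over all 12588 genes the counts were 359 and 295.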

How the data were processed

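RNA from whole blood was depleted of globin transcripts with GLOBINclear, amplified, biotin-labelled and hybridised to oligonucleotide arrays, per the labels. The deposited log2 values were normalized by the authors with RMA, per the submitters' processing notes, with no version named. Deposited values ran from 0.410 to 14.1. The lowest is below what RMA usually gives, so the variant used and the scale of dim values are unknown. RMA in its usual form gives arrays a shared distribution of probe values, which removes shifts common to all genes. Values were used without further normalization.

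Of 45101 probe sets, 34945 had exactly 1 gene symbol in the platform annotation, 932 had several, 9160 were not listed and 64 were array controls. Through gene identifiers 34741 matched RefSeq genes, with 0 symbols changed. Probe sets above 4.14, the median of all values, in at least 7 arrays were kept, with the brightest probe set per gene, which left 12588 of 18193 genes. Group means of 6 groups were fitted to 72 arrays with limma 3.58.1 in R 4.3.3 (66 residual degrees of freedom, empirical Bayes), and p-values were adjusted by Benjamini-Hochberg over all genes within a comparison. Exact permutation tests used all 170544 rearrangements of 15 and 7 arrays. Array number limits the precision. The pipeline was tested on simulated data.

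Groups and replicate numbers came from the titles. Named genes are the 15 of smallest p, up to 5 genes of smallest p per list, the 10 highest and 10 lowest called after low Pb exposure, and a set of lead-related genes. One of that set, Rbm3, was not among the tested genes. Genes outside this rule are said to be so or come from the lists and the high-dose calls. The members and the 31 gene lists were chosen with earlier results of these data known. The 15 low Pb mice were bled at both collections, but the labels do not tie their numbers across collections, and the fit treats the collections as independent. Correlations of deviations from group means between same-numbered arrays ran from -0.30 to 0.51 for low Pb recovery and exposure (over 0.1 for 7 of 15 pairs) and from -0.64 to 0.37 for low Pb and control recovery (2 of 7 pairs), so the numbers were not used to pair samples.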

Additional observations from a re-analysis of the deposited data

Results flagged for a closer look

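Single control arrays stood apart from the other 6 of their group after recovery, by the gap to the nearest array relative to the group's range, in 10 of 175 values examined (5.71%, where chance gives about 5%). Control replicate 5 was lowest for Alas2 (13.7), Fech (13.5), the chaperone Hspa1b (2.87) and the oxidase subunit Cox8a (10.4). Control replicate 4 was lowest for Itih5 (4.38), for the plasma cell factor Xbp1 (8.87) and for the mean of the monocyte list (-0.0503), and highest for the mucin Muc5b (5.91). Control replicate 6 was lowest for the cell cycle gene Cdc20 (5.82) and control replicate 3 for the coagulation factor gene F13a1 (8.30).

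The low Pb effect differed between recovery and exposure by a limma test of the difference for Slc12a2 (-0.90), Dapk1 (0.60) and Cdkn2b (0.60). Their values by group are given above.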

How the results depend on the processing

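Under 42 alternatives, 37 left 0 genes past the threshold after recovery from the low dose, and 5 gave 1 gene, which was Cox16 each time. These were cyclic loess (1 gene, adjusted p = 0.0386 by limma) and cell marker covariates (1 gene, 0.0389). Leaving out 1 array gave 0 to 1 genes, with 1 gene without control replicate 1 or low Pb replicate 4. The fifth, added after the values were seen, left out the arrays of wide relative log expression (1 gene, 0.0461). In this comparison it left out only low Pb replicate 4, so it largely repeats the fit without that array, and the Cox16 difference was -0.50 in both. The count at an unadjusted p under 0.05 lay between 190 and 608. Of 612 values of the 15 genes of smallest p, 0 changed sign. The platelet median lay between 0.18 and 0.26 without any 1 control or low Pb recovery array, and was 0.00 with cell marker covariates and 0.01 with the platelet mean as a covariate, which remove that difference by construction.

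The count for the change of effect between collections, 3 genes, was 78 after quantile normalization, 45 after cyclic loess, 15 with a stricter filter, 9 with the mean of a gene's probe sets, 716 with array weights, 16 with the random replicate block, 14 with the 18S covariate, 19 with 3 prime minus 5 prime covariates, and 0 with cell marker covariates, with the platelet covariate or without arrays of high gland gene signal. Leaving out 1 array gave 1 to 133 genes, the lowest without control recovery replicate 3 and the highest without control recovery replicate 1. High against low Pb, 0 genes, gave 1 gene (Odf3) in the fit to the 35 recovery arrays, 95 with array weights, 5 without the arrays of high gland gene signal (Ncapg, Reep6, Scrn2, Tat and Uhrf1) and 0 to 1 without 1 array (Scrn2, without low Pb replicate 11). The share of exposure calls that kept their sign, 50.6%, was 29.3% with array weights and 32.4% to 62.5% without 1 array, lowest without control recovery replicate 4, and 67.4% with the fixed replicate block. Each fit made its own exposure calls, 164 in the main fit, 1406 with array weights and 224 with the fixed block. These shares therefore describe different sets of genes. The share has no value without the gland-signal arrays, where no exposure call remained. The cause of these shifts was not tested.

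The fixed replicate block gave 0 genes after recovery (300 at an unadjusted p under 0.05) and the random replicate block 0 genes. Same-numbered arrays correlated too unevenly to establish pairs, so repeated bleeding of the same low Pb mice is not modelled beyond the random block, whose count of 16 for the change of effect stands above. That block also joined same-numbered control arrays across the collections, although the labels do not say that these are the same mice. After the low dose, 53 genes have intervals that reach 1.5-fold, and for dim probe sets near background the arrays bound little.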

Other observations

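The gland gene Scgb1b2 lay above the median of all values in low Pb replicates 6, 11 and 14 after recovery, and in low Pb replicates 3, 6, 7, 8, 9, 11, 14 and 15 after exposure, so each of the 3 recovery numbers recurs among the 8 exposure numbers. In high Pb mice it lay above that median in replicates 8 and 13 after recovery and in 7 of 15 arrays after exposure, among them 13 but not 8. In control mice it did so in replicates 1, 3 and 6 after recovery and in replicates 5 and 6 after exposure. The labels do not say that a number marks the same mouse at both collections, and the recurrence was not tested.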
